A study of Rattus norvegicus with 4 samples.

Results

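The genes described here encode the enzymes and transporters of glycolysis, the pentose phosphate pathway and the citrate cycle, in rat spleen cells taken 24 h after an injection of liposomes or saline. They were chosen by name from a list of 38 genes, of which 37 had at least 1 probe under that name on the array, out of 22135 named genes in all. Pgd was not analysed here. All 37 had a probe well above background on all 4 arrays and entered the test, which covered 12857 genes. They divide into 21 genes of glycolysis, 2 of the pentose phosphate pathway (Tkt and Taldo1) and 14 of the citrate cycle, the last group including the entry enzyme pyruvate dehydrogenase and the cytosolic enzymes Idh1, Mdh1, Me1 and Acly that work on the same metabolites.

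Glycolysis breaks glucose down to pyruvate or lactate in the cytosol. The pentose phosphate pathway branches off after the first phosphorylation and yields NADPH and ribose, and the citrate cycle oxidises acetyl groups in mitochondria. Macrophages are known to lean on glycolysis when activated by bacterial products and on mitochondrial oxidation when they take up and burn lipid or dying cells. Several steps exist as paralogous enzymes with different tissue distribution: among the hexokinases, Hk1 is widespread, Hk2 is inducible and Hk3 is found mostly in myeloid cells.

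Both groups were male WKAH rats of 8 to 12 weeks, 2 arrays each. One group had been given saline and the other liposomes, vesicles of lipid whose composition and dose are not given in the sources used here. From each spleen, cells carrying MHC class II were removed with magnetic beads and cells carrying CD11b/c, an integrin of myeloid cells, were then retained; the enrichment was the same in both groups. Whether the 2 arrays of a group came from different animals is not said in the labels, and p-values therefore describe only how far these arrays differ, which may be technical variation. A value below is the log2 intensity of a 60-base probe minus the 75th percentile of all probes of that array, so that 0 is the brightness of a fairly bright probe. It can be set against the same probe on another array but not against another gene's probe.

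The labelled cell type was checked first. Of 13 macrophage markers 10 were well enough above background to be tested, among them Cd68, Csf1r and Adgre1. With liposome 1 was called higher and 5 lower (60% called, against 8.89% of all genes), with a median log2 difference of -0.69. The difference lay above 0 for 3 of the 10 and below 0 for 7. Cd68, Csf1r and Adgre1 were not called, with log2 differences of 0.76, -0.42 and -0.43. The marker called higher was well above background on 0 of 2 saline arrays. It entered the test only through the liposome arrays, where it was high, so its call supports nothing here. Marco and Vsig4 were not well above background on any array. Markers of other spleen cells were measured too. Their summed intensity, on a linear scale where 1 is the 75th percentile of an array, was 243 and 269 on the saline arrays against 145 and 157 on the liposome arrays for neutrophils, 88.1 and 90.8 against 33.9 and 32.6 for erythroid cells, and 72.9 and 69.8 against 51.4 and 39.6 for B and plasma cells. Dendritic cell markers summed to 11.2 and 10.2 against 5.26 and 4.81, with Zbtb46, Xcr1 and Itgae not well above background on any array. Platelet markers, 3 tested, summed the other way, to 0.634 and 0.587 against 1.43 and 1.32. Of these 1 was called higher and 1 lower (66.7% called, against 8.89% of all genes). The macrophage markers summed to 103 and 102 against 85.4 and 77.4. The part of any of these cells in the results was not tested. T cell and natural killer cell markers differed by title number too: T cell markers summed to 16.2 and 16.5 on the arrays numbered 1 and to 35.6 and 29.4 on those numbered 2, and natural killer markers to 27.9 and 11.3 against 88.4 and 34.4. Not every gene followed its sum. Cd4 and Cd8b were lower on number 2 in both groups, and Klrk1 was lower on number 2 with saline. Within each number the natural killer sum was lower on the liposome array, and all 8 tested genes of that list lay lower with none called (median log2 difference -1.35). In such a mixed fraction, fewer cells of a type and less RNA per cell cannot be told apart.

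Of the 37 genes, 3 were higher and 1 was lower on the liposome arrays by limma (Benjamini-Hochberg adjusted p under 0.05 over all genes tested). These 4 genes are 10.8% of the members, against 8.89% of all genes tested, so the share called was near the background (4.83% of all genes were called higher and 4.06% lower). The hexokinase gene Hk3 rose 6.13-fold and its paralog Hk1 fell 1.57-fold, while the mitochondrial isocitrate dehydrogenase gene Idh2 and the cytosolic malate dehydrogenase gene Mdh1 rose 1.71-fold and 1.54-fold. The other 33 genes did not pass the test, with log2 differences between -0.90 (Pfkfb4) and 0.82 (Idh1). The 3 pathways did not lie alike: the median log2 difference was -0.14 over the glycolysis genes, 0.13 over the pentose phosphate genes and 0.37 over the citrate cycle genes, beside -0.04 over all genes tested. The pentose phosphate median rests on 2 genes and was -0.02 without saline 2 and 0.27 without saline 1. The fitted difference was above 0 for 22 of the 37 genes, against 46.1% of all genes. Liposome values lay wholly above the saline values for 20 of them and wholly below for 12, and such separation in either direction was seen for 65.5% of all genes.

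**Figure D1:**
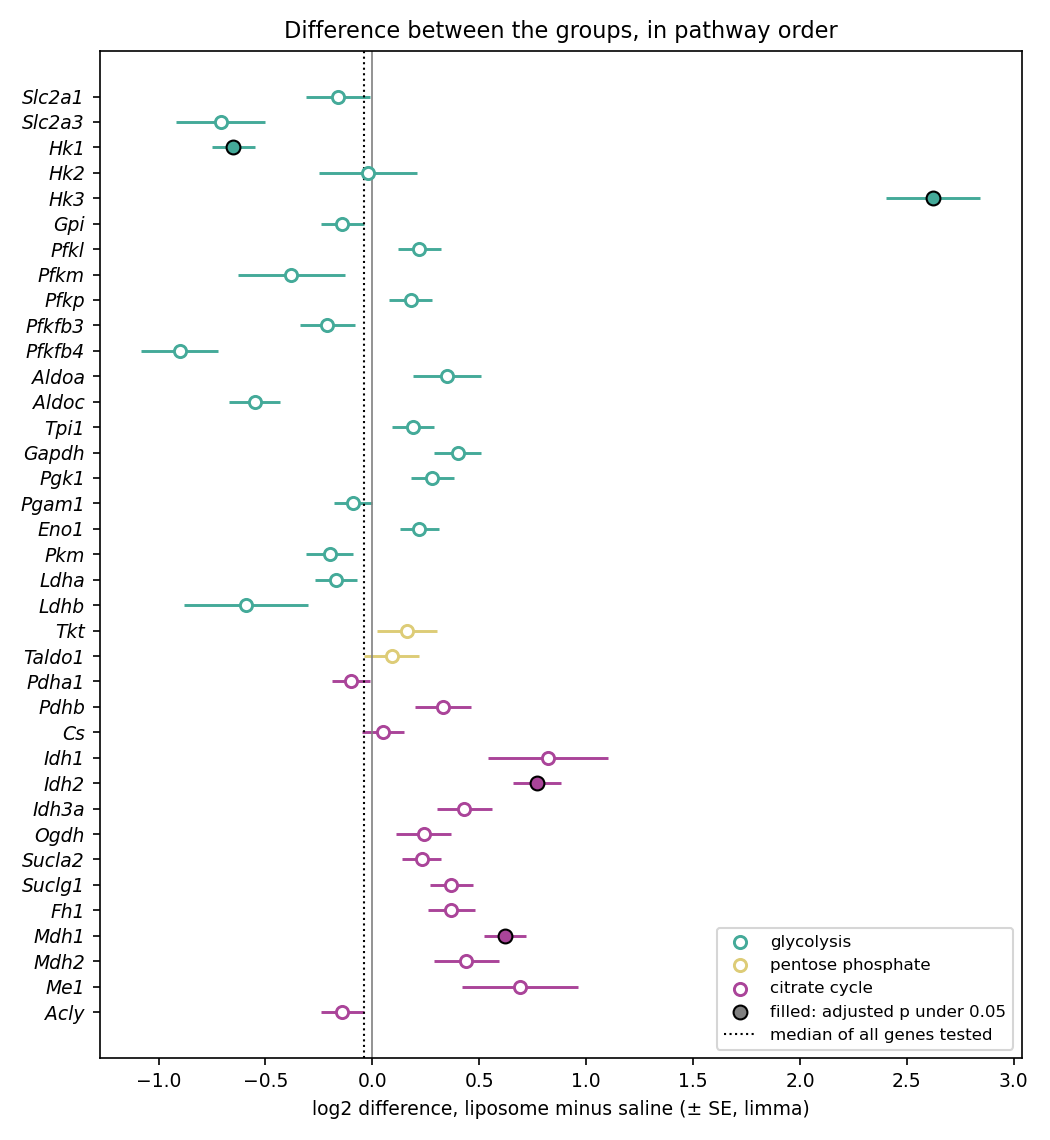
Log2 difference (liposome minus saline, x axis) with its standard error from limma for each of the 37 genes, listed in pathway order and coloured by pathway; filled points passed an adjusted p of 0.05 and the dotted line is the median of all genes tested. Hk3 stands alone at 2.62, and 12 of the 14 citrate cycle genes lie above 0.

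The probes behind the calls are shown by their first 30 bases of 60, written 5′ to 3′ from the array files, because the 3 hexokinases moved differently and their probes need to be told apart.
Hk1: aaacaacaccatcactggaatttccatcgc
Hk2: gaccttggggacaggagtggctttggtcgc
Hk3: ttgaggaaaatctccaaagagcaattggga
Idh2: aggcaggaacggtgcgctttacctcagcca
Mdh1: gatgatgtaaaaaatgtcattatctgggga
Over their full length the Hk1 and Hk3 probes shared no run of identical bases longer than 5, and without gaps at most 20 of their 60 bases matched. For Hk1 and Hk2 these values were 6 and 21, and for Hk2 and Hk3 they were 5 and 18. On the rat assembly rn4 named in the file headers, the Hk3 probe lies at chr17:15668934-15668993, the Hk2 probe at chr4:116925790-116925849, the Idh2 probe at chr1:135876105-135876164 and the Mdh1 probe at chr14:102261426-102261485, and the files give no position for the Hk1 probe. Without an annotation of rn4, whether a probe lies in coding or untranslated sequence is not given.

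Among the members, Slc2a1 and Slc2a3 encode the glucose transporters GLUT1 and GLUT3. Slc2a1 had values of 2.62 and 2.81 on the saline arrays and 2.41 and 2.69 on the liposome arrays, which overlapped. Slc2a3 had -1.42 and -1.90 on the saline arrays and -2.49 and -2.24 on the liposome arrays. Both liposome values of Slc2a3 lay below both saline values, but the log2 difference of -0.71 ± 0.21 (SE, n = 2 arrays per group) did not pass (limma adjusted p = 0.106).

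Hexokinases trap glucose in the cell by phosphorylating it. Hk3 had values of -0.58 and -1.15 on the saline arrays and 1.70 and 1.80 on the liposome arrays. The groups lay 2.28 log2 units apart at their nearest, beside 0.56 between the saline arrays. Its log2 difference was 2.62 ± 0.22 (limma adjusted p = 0.0151), and it was 2.28 between the arrays numbered 1 and 2.95 between those numbered 2. The neutrophil markers, from cells in which Hk3 is also expressed, lay lower on the liposome arrays for 10 of 10 tested. Of these 7 passed (70%, against 8.89% of all genes), with a median log2 difference of -0.78. The part of these cells in the Hk3 value was not tested.

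Hk1 moved opposite to Hk3. Its values were 2.20 and 2.11 on the saline arrays and 1.47 and 1.54 on the liposome arrays, without overlap. The log2 difference was -0.65 ± 0.10 (limma adjusted p = 0.0387). It was -0.72 between the arrays numbered 1 and -0.57 between those numbered 2. Erythroid markers, from cells that rely on Hk1 for glycolysis, lay lower on the same liposome arrays for 6 of 8 tested, with a median of -1.26. Of the 8, 5 were called lower and 0 higher (62.5% called, against 8.89% of all genes). Klf1 and Tfrc lay the other way, at 0.69 and 0.07, with overlap between the groups. Epb42 and Rhag were not well above background on any array. The part of these cells in the Hk1 value was not tested. Hk2 had -1.25 and -1.88 on the saline arrays and -1.57 and -1.60 on the liposome arrays. The liposome values of Hk2 fell between the saline values, and its difference of -0.02 had a 95% interval of -0.65 to 0.62.

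**Figure D2:**
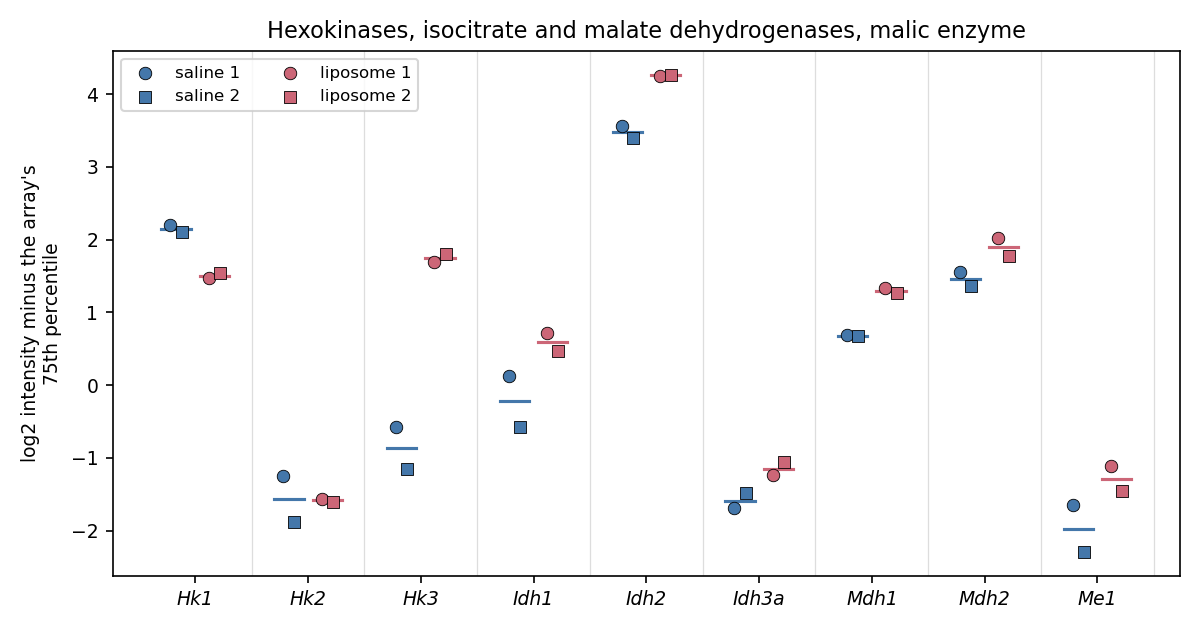
Log2 intensity relative to the 75th percentile of each array (y axis) for hexokinases, isocitrate dehydrogenases, malate dehydrogenases and malic enzyme; each point is 1 array, circles are title number 1, squares number 2, and bars are group means. The Hk1 and Hk3 groups are separated in opposite directions, Hk2 overlaps, and the liposome points of Idh1, Idh2, Idh3a, Mdh1, Mdh2 and Me1 all lie above the saline points; only the same gene's points can be compared, since each gene has its own probe.

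The promoters of the opposed paralogs are printed from RefSeq on build GRCr8, 250 bases before to 50 after the annotated start, with matches to the core of the hypoxia factor's site (ACGTG or GCGTG) and to GAGGAA, the core bound by the myeloid factor PU.1, in capitals on either strand. GAGGAA was added after the values were seen. Only 1 start was taken for each gene, and whether it is the start used in these cells was not tested.
Hk1 (chr20:30874765-30875064, minus strand): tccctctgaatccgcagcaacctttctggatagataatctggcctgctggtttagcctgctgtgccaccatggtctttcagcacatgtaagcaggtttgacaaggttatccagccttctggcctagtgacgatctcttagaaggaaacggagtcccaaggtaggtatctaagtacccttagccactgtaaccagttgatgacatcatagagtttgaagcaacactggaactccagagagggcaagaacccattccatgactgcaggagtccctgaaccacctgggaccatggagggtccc
Hk3 (chr17:9604781-9605080, plus strand): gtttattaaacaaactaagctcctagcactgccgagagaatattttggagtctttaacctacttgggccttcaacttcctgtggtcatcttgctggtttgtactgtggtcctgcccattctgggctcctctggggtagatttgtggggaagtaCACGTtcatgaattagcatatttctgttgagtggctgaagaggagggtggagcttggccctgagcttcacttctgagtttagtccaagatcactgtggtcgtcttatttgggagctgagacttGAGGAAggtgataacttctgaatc
The Hk3 window held 1 match to ACGTG, read on the opposite strand as CACGT, and 1 to GAGGAA, and the Hk1 window held neither. Of 34 members with a promoter in the table, 21 (61.8%) held ACGTG or GCGTG, against 42.9% of 27457 promoters of the same length. It was 13 of 19 among glycolysis genes, 7 of 13 among citrate cycle genes and 1 of 2 among pentose phosphate genes. GAGGAA was in 32.4% of the members' promoters and 27.5% of all, and CACGTG, which contains ACGTG, in 11.8% and 6.65%. The promoters of Idh2 and Mdh1 held none of these motifs. A match is a description of the letters and shows no binding.

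The committing step of glycolysis is run by phosphofructokinase, a tetramer of Pfkl, Pfkm and Pfkp subunits, under the control of fructose 2,6-bisphosphate, which the bifunctional enzymes Pfkfb3 and Pfkfb4 make and degrade. Pfkl and Pfkp had log2 differences of 0.22 and 0.18 with no overlap between groups, and neither passed (limma adjusted p = 0.232 and 0.303). Pfkm had -1.57 on saline 2 and -2.33 to -2.22 on the other 3 arrays, so that its difference of -0.38 rested on saline 2 and was -0.05 without it. Pfkfb4 had -1.40 and -1.81 on the saline arrays and -2.60 and -2.40 on the liposome arrays. Its groups lay apart by 0.59, and its log2 difference of -0.90 ± 0.18 was the lowest of the 37 genes (limma adjusted p = 0.0593). With median scaling and with normexp it passed (limma adjusted p = 0.0497 and 0.0419). Pfkfb3 was dim, with values of -3.69 and -3.79 against -3.82 and -4.08, and did not pass (limma adjusted p = 0.329). A second Pfkfb3 probe was not well above background on any array.

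Aldolase splits the 6-carbon sugar into trioses. Aldoa, the main form outside liver and brain, had a log2 difference of 0.35 ± 0.16, and Aldoc had -0.55 ± 0.12, with values of -1.45 and -1.23 on the saline arrays and -1.88 and -1.91 on the liposome arrays. Neither passed (limma adjusted p = 0.212 and 0.0639), though Aldoc did with normexp (limma adjusted p = 0.0374). The pair thus lay on opposite sides of 0, as Hk1 and Hk3 did, but without calls.

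The enzymes from the trioses down to pyruvate gave small values in both directions. Gapdh, which oxidises glyceraldehyde phosphate, had 4.70 and 4.58 on the saline arrays and 4.99 and 5.09 on the liposome arrays. Its log2 difference was 0.40 ± 0.11 (limma adjusted p = 0.0894), and its 3 probes gave 0.37 to 0.43. Both liposome arrays thus lay above both saline arrays for this gene, which is often used as a loading control. The kinase gene Pgk1 and the enolase gene Eno1 had 0.28 and 0.22, the isomerase gene Tpi1 had 0.19 and the mutase gene Pgam1 -0.09, and none passed (limma adjusted p = 0.137, 0.185, 0.257 and 0.524). The isomerase gene Gpi, earlier in the pathway, had -0.14 (limma adjusted p = 0.381). The files place 2 of the 3 Eno1 probes on chromosome 5 and the other on chromosome 10, and that probe may read a copy of the gene, so it is uncertain. It gave the same log2 difference of 0.22. The Pgam1 probe is also placed on chromosome 10, while the RefSeq promoter of Pgam1 lies on chromosome 1 of GRCr8. Its value is therefore uncertain too.

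Pyruvate kinase, the last step, has 3 probes for Pkm. The probe used had 5.33 and 5.15 on the saline arrays and 5.0 and 5.07 on the liposome arrays, a log2 difference of -0.20 ± 0.11 (limma adjusted p = 0.293). The probes at chr8:63507002-63507061 and chr8:63504373-63504432 gave -0.30 and -0.73, all in the same direction but different in size. The last named had -1.92 and -2.15 against -2.78 and -2.75. Which splice form of Pkm each probe reads was not determined. Lactate dehydrogenase turns pyruvate into lactate. Ldha had -0.17 ± 0.10 (limma adjusted p = 0.281). Ldhb had -0.55 on saline 1, 0.25 on saline 2 and -0.72 and -0.75 on the liposome arrays. Its log2 difference of -0.59 was -0.19 without saline 2 and -0.99 without saline 1, where it passed (limma adjusted p = 0.049). Saline 2 was also the array with the highest summed T cell and natural killer cell markers, and their part in the Ldhb and Pfkm values was not tested.

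**Figure D3:**
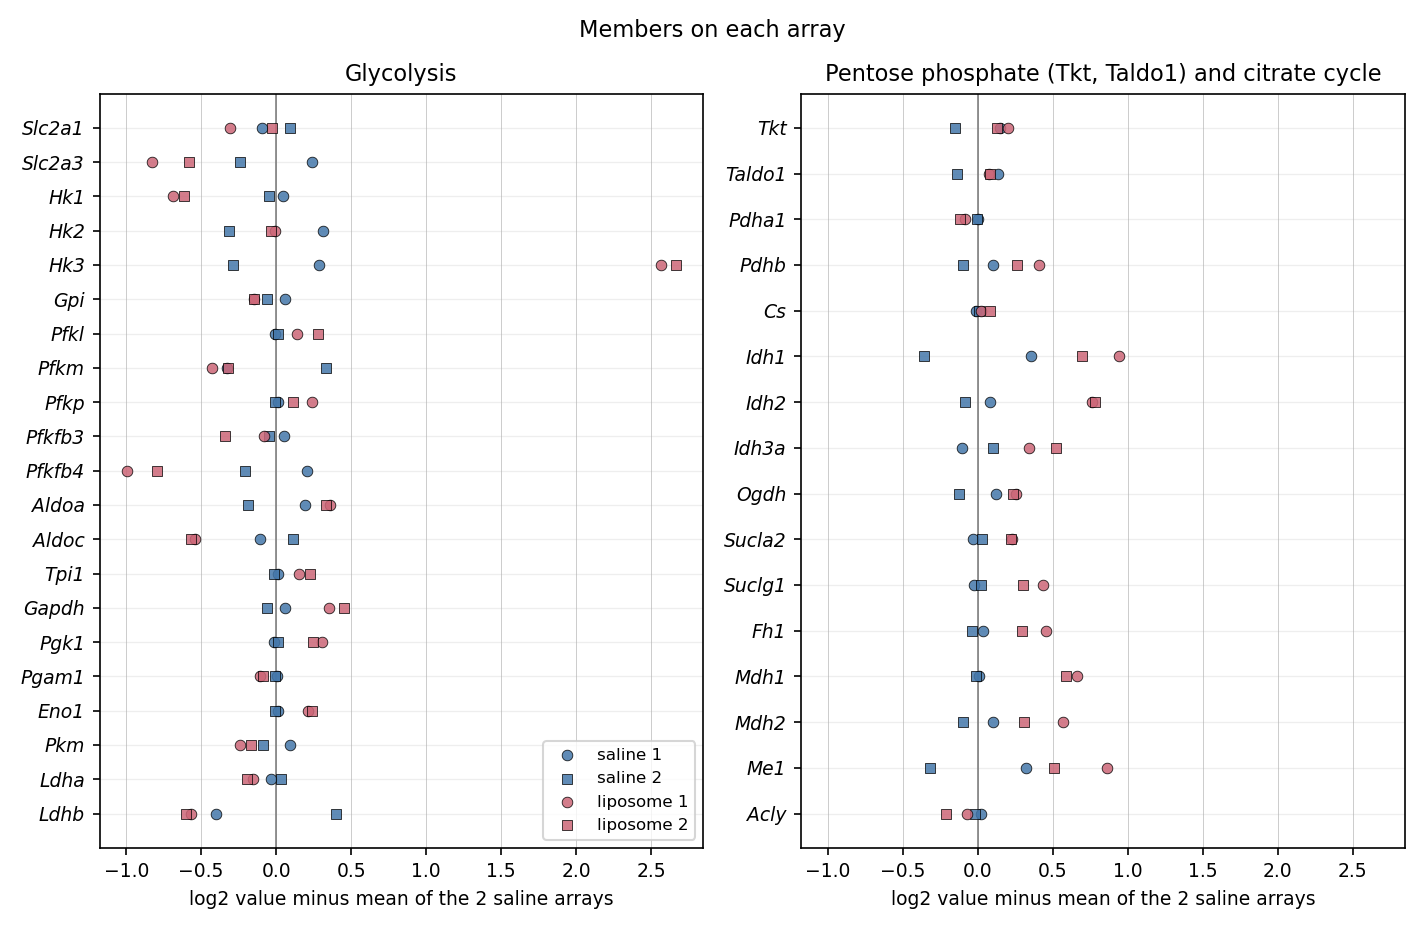
Value of each gene on each array minus the mean of the 2 saline arrays (x axis, log2), with glycolysis genes on the left and pentose phosphate and citrate cycle genes on the right; blue is saline, red is liposome, circles are title number 1 and squares number 2. In glycolysis the liposome points lie to both sides of 0, while in the citrate cycle they lie to the right for 12 of 14 genes.

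Over all 21 glycolysis genes, 8 had liposome values wholly above the saline values and 10 wholly below, and 3 overlapped. Without a test, such separation was seen for 30.4% of all genes in the higher direction and for 35.1% in the lower, so it is common in this comparison. With the arrays scaled by their medians, 9 glycolysis genes lay above 0 and 12 below, against 8 and 13 as reported.

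Neither of the 2 pentose phosphate genes passed. Tkt, transketolase, had 7.54 and 7.24 on the saline arrays and 7.59 and 7.52 on the liposome arrays, a log2 difference of 0.16 with a 95% interval of -0.22 to 0.55. Taldo1, transaldolase, had 4.98 and 4.71 against 4.92 and 4.93, a difference of 0.09 with an interval of -0.27 to 0.44. Both overlapped between the groups, and the sign of Taldo1 turned without saline 2 (-0.05). Of 9 tested other genes of the pathway none passed (lowest limma adjusted p = 0.243), with log2 differences from -0.25 to 0.30 and a median of -0.10.

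Citrate cycle genes lay higher with liposome more evenly than the others. Of 14 genes, 2 passed in the higher direction and 0 in the lower, which is 14.3% called against 8.89% of all genes. The liposome values lay wholly above the saline values for 12 of 14 genes (85.7%), against 30.4% of all genes tested, and wholly below for Pdha1 and Acly. The median log2 difference of 0.37 lay between 0.30 and 0.45 in all 11 other settings tried, and 12 genes lay above 0 in each of them. The list was chosen with results of these arrays known, and no test of the list as a whole was made.

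The dehydrogenases of isocitrate make alpha-ketoglutarate, and of the 3 among the members Idh2 alone passed. Idh2, the NADP-dependent mitochondrial enzyme, had 3.57 and 3.4 on the saline arrays and 4.25 and 4.27 on the liposome arrays. Its groups lay 0.68 apart, with 0.17 between the saline arrays and 0.02 between the liposome arrays. The log2 difference was 0.77 ± 0.11 (limma adjusted p = 0.0345). Idh1, its cytosolic counterpart, had 0.13 and -0.58 on the saline arrays and 0.72 and 0.47 on the liposome arrays. Its difference of 0.82 ± 0.28 was the larger of the pair but the saline arrays lay 0.72 apart, and it did not pass (limma adjusted p = 0.132). With the title number as a block it did (limma adjusted p = 0.0473), and its difference was 1.18 without saline 1 and 0.46 without saline 2. Idh3a, a subunit of the NAD-dependent enzyme of the cycle proper, had -1.69 and -1.48 against -1.24 and -1.06, a difference of 0.43 ± 0.13 (limma adjusted p = 0.114). The other subunits of that enzyme, Idh3b and Idh3g, are not members. They had log2 differences of 0.24 and -0.01 and did not pass (limma adjusted p = 0.176 and 0.976).

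Malate dehydrogenases interconvert malate and oxaloacetate and carry reducing equivalents between cytosol and mitochondria. Mdh1, the cytosolic form, had 0.69 and 0.67 on the saline arrays and 1.34 and 1.27 on the liposome arrays. Its log2 difference was 0.62 ± 0.10 (limma adjusted p = 0.0398), and it was 0.65 and 0.59 within the arrays numbered 1 and 2. Mdh2, the mitochondrial form, had 1.56 and 1.36 against 2.03 and 1.77. Its difference of 0.44 ± 0.15 had the same direction without passing (limma adjusted p = 0.128). Me1, malic enzyme, which makes NADPH from malate in the cytosol, had -1.65 and -2.29 against -1.11 and -1.46. Its difference was 0.69 ± 0.27 (limma adjusted p = 0.166), and a second probe gave 1.01. With the title number as a block it passed (limma adjusted p = 0.0462), and its difference was 1.0 without saline 1 and 0.37 without saline 2.

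The remaining genes of the cycle had smaller values, and none passed. Suclg1 and Sucla2, subunits of succinyl-CoA synthetase, had log2 differences of 0.37 and 0.23, Fh1, fumarase, 0.37, and Ogdh, the first subunit of the alpha-ketoglutarate dehydrogenase complex, 0.24 (limma adjusted p = 0.099, 0.186, 0.104 and 0.259). Cs, citrate synthase, which opens the cycle, had 2.65 and 2.67 against 2.68 and 2.74, a difference of 0.05 with a 95% interval of -0.21 to 0.31. Of the pyruvate dehydrogenase subunits, Pdhb had 0.33 and Pdha1 -0.10 (limma adjusted p = 0.158 and 0.478). Acly, which takes citrate back to acetyl-CoA for lipid synthesis in the cytosol, had 3.24 and 3.20 against 3.15 and 3.01, a difference of -0.14 (limma adjusted p = 0.397).

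Other genes around the same reactions, from lists drawn up by pathway, were called at several points. Around glycolysis, 15 of 24 listed genes could be tested, of which 1 was called higher and 1 lower (13.3% called, against 8.89% of all genes). Pfkfb2, a paralog of Pfkfb3 and Pfkfb4, had -4.80 and -4.71 on the saline arrays and -2.21 and -2.25 on the liposome arrays, a log2 difference of 2.52 ± 0.10 (limma adjusted p = 0.00752). It was well above background on 1 of 2 saline arrays and entered the test only through the liposome arrays, where it was high, so its call supports nothing here. It was not tested when all 4 arrays had to be above background, and its difference was 1.37 with normexp. Eno3, the muscle-type paralog of Eno1, had 4.74 and 4.61 against 2.69 and 2.66, a difference of -2.01 ± 0.10 (limma adjusted p = 0.00769). Eno1, by comparison, lay slightly higher without passing. Whether the 2 paralogs differ from each other was not tested.

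Around the citrate cycle, 26 of 29 listed genes could be tested, of which 5 were called higher and 1 lower (23.1% called, against 8.89% of all genes). The median log2 difference was 0.34. Mpc1, a subunit of the carrier that brings pyruvate into mitochondria, had 2.94 and 2.99 on the saline arrays and 4.27 and 4.09 on the liposome arrays, a log2 difference of 1.22 ± 0.11 (limma adjusted p = 0.0181). Its partner Mpc2 had 0.14 ± 0.10 (limma adjusted p = 0.383). Pdhx, the subunit that anchors part of the pyruvate dehydrogenase complex, rose by 1.04 ± 0.13 (limma adjusted p = 0.0287). Pdk3, a kinase that switches that complex off, had a log2 difference of -0.70 ± 0.12 (limma adjusted p = 0.0465) and so fell. Its paralogs Pdk1 and Pdk2 had -0.10 and 0.14 and did not pass (limma adjusted p = 0.724 and 0.424). The phosphatase genes of the complex, Pdp1 and Pdp2, had -0.63 and 0.08 and did not pass either (limma adjusted p = 0.162 and 0.767).

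The cytosolic aconitase gene Aco1, whose product also binds iron-responsive RNA elements, rose by 1.24 ± 0.16 (limma adjusted p = 0.0299). Slc25a10, the dicarboxylate carrier, rose by 1.14 ± 0.12, and Pc, pyruvate carboxylase, which refills the cycle with oxaloacetate, by 0.64 ± 0.10 (limma adjusted p = 0.0206 and 0.0425). The 4 subunits of succinate dehydrogenase had 0.33 (Sdha), 0.51 (Sdhb), 0.48 (Sdhc) and 0.53 (Sdhd), and none passed (limma adjusted p = 0.115, 0.0646, 0.079 and 0.0657). With normexp Sdhb, Sdhc and Sdhd passed (limma adjusted p = 0.0478, 0.0413 and 0.0397), and with median scaling Sdhb and Sdhd did (limma adjusted p = 0.0416 and 0.0467). Acod1, which diverts cis-aconitate to itaconate in activated macrophages, had 0.71 and 0.33 against 1.12 and 1.70, and did not pass (limma adjusted p = 0.103).

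**Figure D4:**
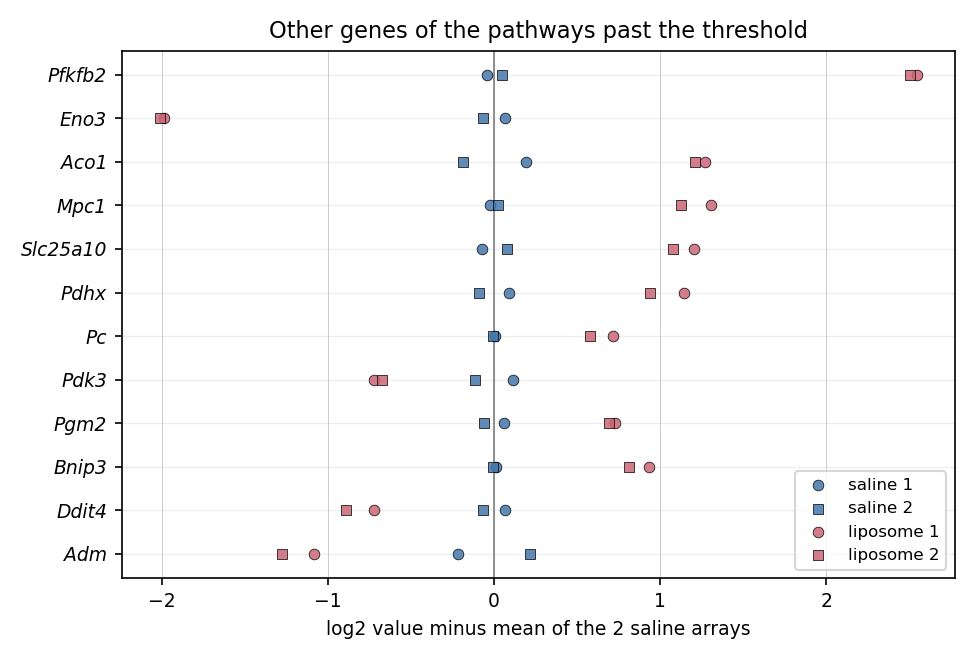
Value on each array minus the mean of the 2 saline arrays (x axis, log2) for the 12 genes past the threshold among the other lists: glycolysis (Pfkfb2, Eno3), citrate cycle (Aco1 to Pdk3), glycogen and gluconeogenesis (Pgm2), and the hypoxia factor's other targets (Bnip3, Ddit4, Adm). The liposome points lie to the right of the saline points for 8 and to the left for 4. The genes were picked by the test on these same arrays, so this separation adds no support, and it was seen for 65.5% of all genes. Pfkfb2 entered the test only through the liposome arrays.

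Among 16 tested genes of gluconeogenesis and glycogen turnover, 1 was called (6.25%, against 8.89% of all genes), and the median was 0.00. It was Pgm2, phosphoglucomutase 2, which rose by 0.71 ± 0.10 (limma adjusted p = 0.0351). Hypoxia-inducible factor drives many glycolysis genes, so a list of the factor itself, its regulators and its other targets was looked at beside them. Of 22 tested, 1 was called higher and 2 lower (13.6% called, against 8.89% of all genes), with a median of -0.12. The log2 difference was 0.87 ± 0.10 for Bnip3, a mitophagy receptor, -1.18 ± 0.19 for Adm, adrenomedullin, and -0.81 ± 0.12 for Ddit4, an inhibitor of mTORC1 (limma adjusted p = 0.0252, 0.0413 and 0.0361). Adm did not pass with median scaling (limma adjusted p = 0.0531). Hif1a itself, which is in that list, had -1.54 and -1.67 against -1.88 and -1.53, which overlapped. None of the listed genes for the factor and its regulators was called.

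The 4 calls among the members changed when arrays were left out. Without saline 1 or saline 2, Hk3 alone of the 4 still passed (limma adjusted p = 0.0289 and 0.0336, log2 difference 2.90 and 2.33), and Hk1, Idh2 and Mdh1 did not (limma adjusted p from 0.0535 to 0.0789). Without liposome 1 or liposome 2 limma called 0 genes on the whole array (2178 and 2397 at unadjusted p under 0.05), with adjusted p = 0.0908 and 0.0946 for Hk3. In each of these fits the lone array of a group is assumed to vary like the arrays of the other group. Of the other genes named as called, Mpc1, Pdhx, Slc25a10, Pc, Pdk3, Pgm2, Bnip3 and Ddit4 did not pass without either saline array, Aco1 and Adm did not without saline 2, and none passed without a liposome array.

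**Figure D5:**
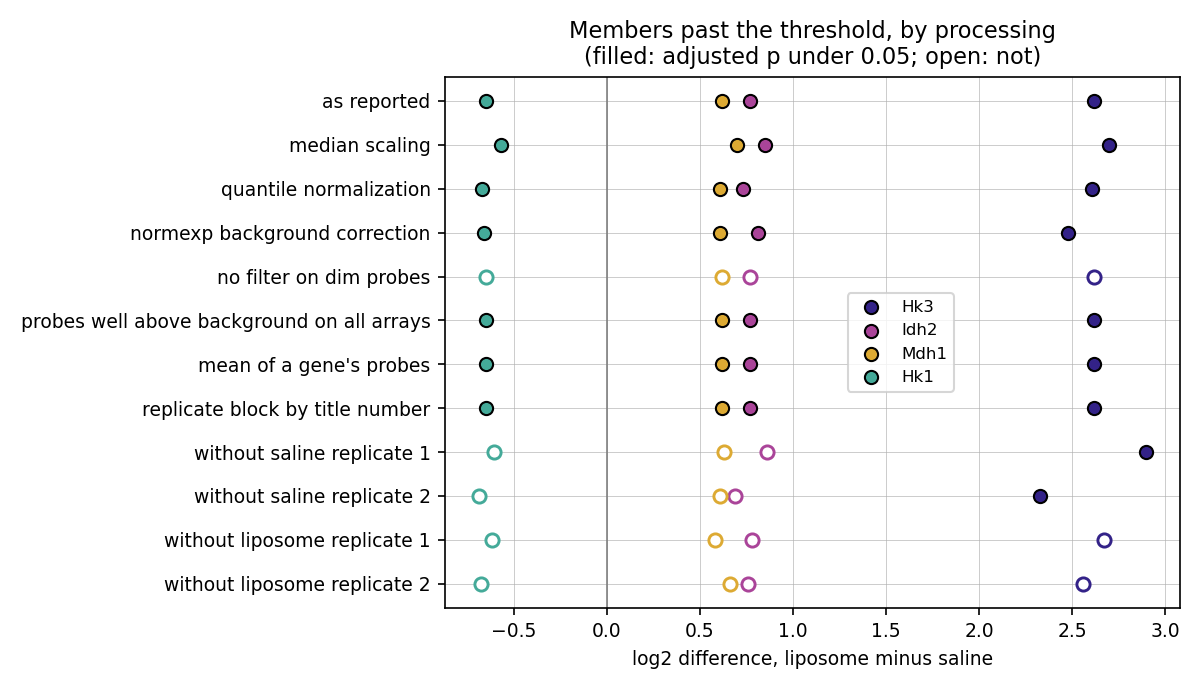
Log2 difference (x axis) of the 4 genes called among the members under each processing tried (y axis); filled points passed an adjusted p of 0.05. The sign of each gene is the same in every row, and the calls of these 4 genes are lost without the filter on dim probes and, other than for Hk3 without a saline array, with an array left out.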

How the data were processed

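The 4 one-colour Agilent arrays held 0.2 ug of RNA each, labelled with Cy3. Feature Extraction 10.7.3.1 is the software named in the submitters' processing notes. The authors deposited spot intensity values on a linear scale, which the scanner software had already corrected for background and spatial trend, per the file headers. Of 42877 spots, 61.3% to 66.3% were well above background, 0 were saturated, and 1.14% to 1.36% were outliers, which were left out. The number of arrays limits the precision.

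Spots of a probe were averaged as log2 values, and the 75th percentile of each array was subtracted. A probe was kept if both arrays of either group had it well above background, and the probe with the highest mean stood for a gene. Accessions of 18006 of 30367 probes matched RefSeq symbols (GRCr8), 8186 kept the name in the file and 4175 had none. Members were matched by the name in the file. The model was limma 3.58.1 (lmFit and eBayes, R 4.3.3) over 12857 genes, with 2 residual and 2.26 prior degrees of freedom and Benjamini-Hochberg adjustment over all of them (threshold 0.05). With 2 arrays a group, the smallest p of an exact permutation is 0.333, so none was run. The fit was also run on simulated data with independent noise on each array. Such data lack the difference by title number seen here, so that run does not vouch for the calls.

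The members and lists were chosen with earlier results of these data known. All members are given. Of each other list, at most 5 genes past the threshold were named by rule. Pc, Mpc2, Idh3b, Idh3g, the succinate dehydrogenase subunits, Acod1, Hif1a, Klf1 and Tfrc were named after their values were seen. So were Pdk1, Pdk2, Pdp1, Pdp2, Cd4, Cd8b and Klrk1. Lists carry no test. Alternatives were median scaling, quantile normalization, normexp (offset 50), no filter, a filter on all 4 arrays, the mean of a gene's probes, the title number as a block, and leaving out each array.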

Additional observations from a re-analysis of the deposited data

How the results depend on the processing

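Under the 11 other settings the sign of the log2 difference was kept by each of the 4 called members. Without the filter on dim probes 21970 genes were tested and limma called 0 genes higher and 0 lower, members included (smallest adjusted p 0.144, with 3005 genes at unadjusted p under 0.05, against 4181 of 12857 as reported). There Hk3, Idh2, Hk1 and Mdh1 had limma adjusted p = 0.165, 0.245, 0.264 and 0.268 at the same log2 differences. With normexp 834 genes were lower in place of 522, and 3 members were lower in place of 1 (Pfkfb4 and Aldoc added). With median scaling 2 members were lower, 852 genes were higher and 442 lower, in place of 621 and 522. The glycolysis median of -0.14 was -0.06 with median scaling, -0.10 with quantile normalization and -0.13 with normexp. Without the filter it stayed at -0.14, but the median over all genes was then -0.17 in place of -0.04. The glycolysis median thus lay slightly above that of all genes there, not below it. With arrays left out one at a time, genes higher ran from 0 to 352, genes lower from 0 to 147, members higher from 0 to 1 and members lower from 0 to 1, and the glycolysis median from -0.10 to -0.08. The cause of these changes was not tested.

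Title numbers are the same in both groups and are written after the letters exp. The labels do not say whether they mark a shared experiment, animal or day, so the main fit did not pair the arrays. The difference between number 1 and number 2 correlated at 0.355 between the groups over genes, with 2 pairs only. With the number as a replicate block, 988 genes were lower and 828 higher, and 5 members were higher in place of 3, Idh1 and Me1 being added (limma adjusted p = 0.0473 and 0.0462). No called member was lost.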
